A study of Mus musculus with 24 samples.

Results

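A total of 8331 genomic regions carried a Foxa2 peak in the induced hepatocyte-like (iHep) line 4a2, no Foxa peak in the other iHep lines, and no place in a dense run of peaks. They were chosen from 9 lists of chromatin immunoprecipitation peaks (ChIP-seq), 3 for each of 3 lines. Peaks that overlapped by at least 1 bp were merged into 16880 regions. The 8506 regions with peaks in lists of line 4a2 alone were kept. From these, 175 were dropped because their peak stood in a chain of at least 4 peaks with gaps of up to 10 kb in the longest list of the line. The 8331 that stayed are called 4a2-only regions here. They made up 49.4% of the 16880 iHep Foxa regions and 71.4% of the 11670 regions of line 4a2. Over all 14 peak lists of the series, peaks merged into 18022 regions.

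Foxa1, Foxa2 and Foxa3 are related forkhead transcription factors of liver and other endodermal tissues, and their DNA-binding domains recognise much the same sequence. Foxa proteins are known as pioneer factors, since they can bind sites in closed chromatin. In mouse, Foxa1 and Foxa2 are needed for the onset of liver development. Hnf4a, introduced together with them here, is a nuclear receptor that activates many genes of mature hepatocytes.

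All iHep cells came from fibroblasts of C57BL/6 mouse embryos of day 13.5. Line 4a2 had been infected with Foxa2 and Hnf4alpha and was profiled with a Foxa2 antibody. Line 4a1 had received Foxa1 and Hnf4alpha and was profiled with a Foxa1 antibody. Line 4a3 had received Foxa3 and Hnf4alpha and was profiled with a Foxa3 antibody. Each of lines 4a2 and 4a3 also gave 1 library with a Flag antibody, which binds an epitope tag. Which protein carried the tag is not in the labels. Hepatocytes from livers of 10-week-old C57BL/6 mice gave 1 list for each Foxa antibody. Line, introduced factor and antibody changed together, so a region of line 4a2 alone cannot be told apart from a region that the Foxa2 antibody alone recovered. The labels do not say whether a line is 1 clone. The lists hold no expression values, so the labelled cell types were not checked against markers.

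Of the 3 Foxa2 libraries of line 4a2, 2 carry the unexplained word EGS in their titles (cultures 1 and 2) and 1 does not (culture 2, called the non-EGS list). The titles of these libraries end in a code that the labels do not explain. Its number is the same for the 2 EGS libraries of line 4a2 and for EGS culture 1 of line 4a1. The non-EGS library has a code of its own. The effects of EGS and of whatever the code stands for cannot be told apart. The non-EGS list held 11408 peaks, against 957 and 1040 in the EGS lists. The lists give no reads, so the depth of the libraries is unknown. Each share is followed by its exact 95% Clopper-Pearson interval, which covers counting error only and not the spread between cultures. Numbers in parentheses after a share are that interval.

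Most 4a2-only regions rested on 1 library. Of the 8331 regions, 7894 (94.8%, interval 94.3 to 95.2) held a peak in 1 list, 369 (4.43%, 4.0 to 4.89) in 2 lists and 68 (0.816%, 0.634 to 1.03) in all 3. The non-EGS list alone held 7707 of them (92.5%). EGS culture 1 alone held 74 and EGS culture 2 alone held 113. A further 15 were in both EGS lists and not in the non-EGS list, 158 in EGS culture 1 and the non-EGS list, and 196 in EGS culture 2 and the non-EGS list. Thus 202 regions (2.42%) rested on EGS lists only. Without the non-EGS list of line 4a2 the rule left 645 regions.

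Seen from each list, 4a2-only regions took 8129 of the 11408 non-EGS peaks (71.3%, 70.4 to 72.1). They took 318 of the 957 peaks of EGS culture 1 (33.2%, 30.2 to 36.3) and 393 of the 1040 peaks of EGS culture 2 (37.8%, 34.8 to 40.8). The interval of the non-EGS list lay above those of both EGS lists, which overlapped. The rule itself used these lists, and the non-EGS list is far longer than the EGS lists. The shares are therefore given as a description, and their separation shows no difference between kinds of library.

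The EGS libraries shared fewer of their regions with each other among 4a2-only regions than among isolated regions shared by lines 4a1 and 4a2 (2357 regions, chains dropped in the same way). Of the 4a2-only regions of EGS culture 1, 83 of 315 (26.3%, 21.6 to 31.6) were also in EGS culture 2, against 135 of 332 (40.7%, 35.3 to 46.2) of the regions of 4a1 and 4a2. In the other direction, 83 of 392 4a2-only regions of EGS culture 2 (21.2%, 17.2 to 25.6) were in EGS culture 1, against 135 of 276 (48.9%, 42.9 to 55.0). The intervals of the 2 sets did not overlap in either direction. The non-EGS list held 71.7% (66.4 to 76.7) of the 4a2-only regions of EGS culture 1 and 67.3% (62.5 to 72.0) of those of EGS culture 2. Among regions of 4a1 and 4a2 it held 95.8% (93.0 to 97.7) and 94.2% (90.8 to 96.7). These shares describe lists that the rule itself used.

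In the non-EGS list, 4a2-only peaks ranked low and were narrow. The authors' score has no stated scale, so it served only as a percentile, the share of peaks in the list with a score at or below that of the peak. The 8129 4a2-only peaks had a median percentile of 41.2 (quartiles 20.2 and 64.0), while the 2333 peaks shared by 4a1 and 4a2 had 78.1 (52.7 and 91.4). The 315 peaks of 4a2 and 4a3 had a median of 54.1, and the 395 peaks of all 3 lines 90.9. Median width was 434 bp (quartiles 369 and 509, range 320 to 1280) for 4a2-only peaks, 538 bp for peaks of 4a1 and 4a2, 479 bp for peaks of 4a2 and 4a3 and 598 bp for peaks of all 3 lines. The 175 4a2-only peaks dropped with the chains had a median percentile of 47.3 and a median width of 462 bp. Scores and widths come from a list the rule used and are given as a description.

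The share of 4a2-only peaks fell at every step up in rank. They were 1014 of the 1127 peaks of the lowest decile by score (90.0%, 88.1 to 91.7), 927 of the 1145 peaks of the fifth decile (81.0%) and 228 of the 1141 peaks of the highest decile (interval 17.7% to 22.4%). The lower 5 deciles held 59.9% of all 4a2-only peaks, and the highest decile 2.80%.

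**Figure D1:**
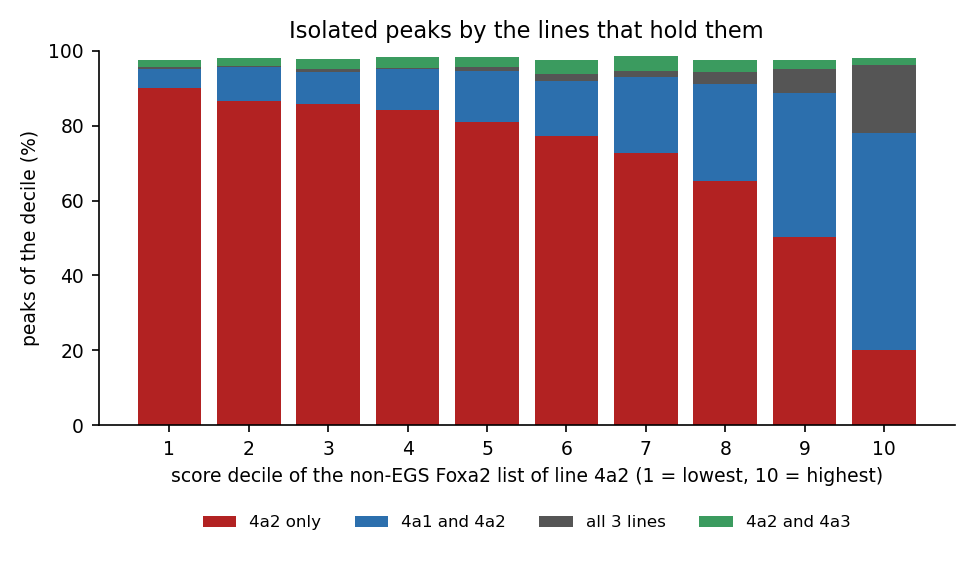
Isolated peaks of the non-EGS Foxa2 list of line 4a2 as a percentage of the peaks of each score decile (x axis, 1 lowest, 10 highest), stacked by the lines that hold the region. The 4a2-only part is 1014 of 1127 peaks in the lowest decile and 228 of 1141 in the highest, and the gap at the top of each bar is peaks in chains and peaks outside these sets.

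Rank and width rose with the number of lists. In the non-EGS list the median percentile was 40.2 for the 7707 regions in that list alone, 62.6 for the 354 also in 1 EGS list and 76.9 for the 68 in all 3 lists. Median widths were 430, 488.5 and 530.5 bp in the same order. In the EGS lists, 4a2-only peaks had median percentiles of 42.4 (culture 1) and 42.1 (culture 2), and median widths of 121.5 and 122 bp, against list medians of 142 and 135.5 bp.

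The 202 regions of EGS lists only had median percentiles equal to or above those of the other 4a2-only regions in the same lists. Their median percentile was 42.4 in culture 1, where the other 4a2-only regions also had 42.4, and 53.4 in culture 2, where the others had 38.8. Many peaks of an EGS list share the same score, so these percentiles move in steps and equal medians mark a tied score. The nearest non-EGS peak of line 4a2 lay at a median of 35.5 kb. It was within 1 kb of 10 of the 202 and within 10 kb of 47.

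The 68 regions in all 3 lists are the most repeated 4a2-only regions. Their percentiles ran from 0.731 through a median of 43.2 to 95.8 in EGS culture 1, from 1.54 through 53.4 to 98.2 in EGS culture 2, and from 2.85 through 76.9 to 97.9 in the non-EGS list. In the non-EGS list 57 of the 68 stood above the middle of the list, and 11 stood above it in all 3. For 42 regions the non-EGS percentile was the highest of the 3. Median widths were 126, 131.5 and 530.5 bp. The non-EGS list is far longer than the EGS lists, and these regions were chosen for a peak in all 3, so the percentiles of different lists show no change between libraries.

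**Figure D2:**
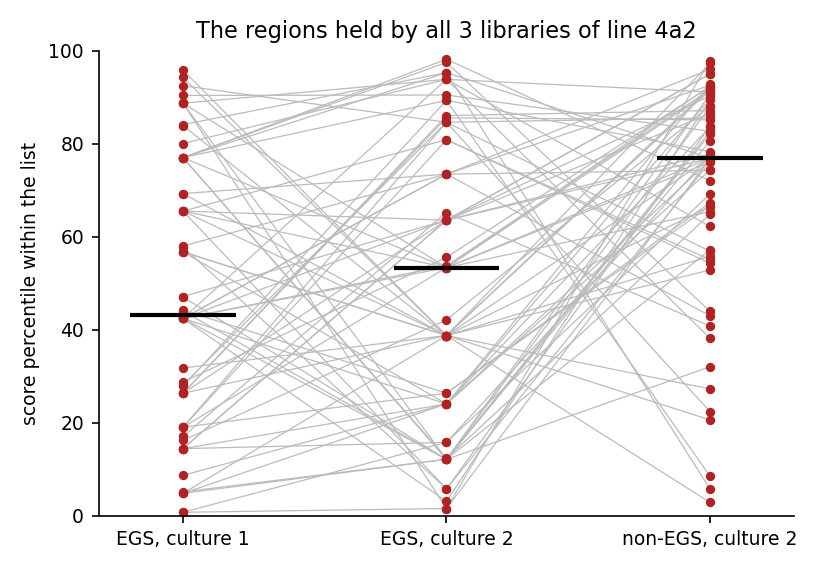
Score percentile of each of the 68 regions in the 3 Foxa2 lists of line 4a2, with a grey line joining the values of a region and a black bar at the median. The medians are 43.2 in EGS culture 1, 53.4 in EGS culture 2 and 76.9 in the non-EGS list, and the lines cross widely.

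The 10 of these 68 with the highest mean percentile lay on 8 chromosomes, none of them in a Flag or hepatocyte list. Positions are in build mm9, and no gene was assigned, since no annotation of that build was used. The region at chr18:82691909-82692761 led, with percentiles of 90.4 and 90.5 in the EGS lists and 82.7 in the non-EGS list. Its nearest 4a1 peak was 10014 bp away. The next, chr15:79198606-79199466, had 84.1, 95.3 and 76.9 in the same order. It spanned 861 bp, the widest of the 68. The region chr18:39643100-39643535 had 77.0, 98.2 and 72.1, and lay 167685 bp from a 4a1 peak and 616952 bp from a 4a3 peak. These 3 ranked high in every Foxa2 list of the line.

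Others of the 10 ranked high in only some lists. The region chr9:69187139-69187718 had percentiles of 58.0 and 73.5 in the EGS lists and 96.0 in the non-EGS list. The region chr7:148350568-148351113 had 42.4, 93.8 and 91.1, and a 4a3 peak stood 2819 bp away. The region chr11:116295745-116296218 had 88.7 and 93.8 in the EGS lists but 38.1 in the non-EGS list. The remaining 4 were chr2:78301334-78301847, chr4:140503252-140503921, chr2:157939505-157939958 and chr1:161180310-161180979, with mean percentiles between 73.9 and 78.7.

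Some strong peaks were not repeated in every list. Among regions in 2 lists, chr2:70175179-70175749 had 89.3 in EGS culture 2 and 96.1 in the non-EGS list. The region chr11:79733374-79733576 had 98.5 and 84.8 in the EGS lists and no non-EGS peak. Likewise chr1:132950085-132950226 had 92.2 and 89.3 in the EGS lists and no non-EGS peak. Among regions in 1 list, the highest were 5 non-EGS peaks led by chr7:136972195-136973086, at percentiles of 98.3 to 99.0. Each of these lay in the top decile of the longest list, with no peak in either EGS list of the line.

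The rank of 4a2-only peaks was then matched by decile, which leaves differences of rank within a decile. Peaks shared by 4a1 and 4a2 were weighted so that their score deciles in the non-EGS list matched those of the 4a2-only peaks. Width at matched deciles was the weighted mean of the median widths of the deciles. It was nearly the same, 433.8 bp for 4a2-only peaks and 439.6 bp for peaks of 4a1 and 4a2. The narrow width of 4a2-only peaks thus went with their rank in this list. In the highest decile 4a2-only peaks measured 606.5 bp against 636 bp, and in the ninth 561 bp against 567 bp. Within the highest decile the median percentile was 93.2 for 4a2-only peaks and 95.2 for peaks of 4a1 and 4a2, so rank was not equal there.

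Recovery in the EGS lists of line 4a2 was lower for 4a2-only peaks than for peaks of 4a1 and 4a2, but the sign depended on which regions of 4a1 and 4a2 were taken. Of the 8129 4a2-only peaks, 422 (5.19%, 4.72 to 5.70) had a peak in at least 1 EGS list of line 4a2, beside 11.2% of all 11408 peaks of the list. For peaks of 4a1 and 4a2 the share was 19.2% (17.6 to 20.9), and 9.46% ± 0.80 (SE) at matched deciles. The difference at matched deciles was -4.27 percentage points (95% interval -5.91 to -2.63). The rule itself used the EGS lists of lines 4a1 and 4a2, and it bars any 4a1 peak from 4a2-only regions. This difference and its interval are therefore given as a description. In the highest decile the shares were 21.1% (15.9 to 26.9) for 4a2-only peaks and 39.1% (35.3 to 42.9) for peaks of 4a1 and 4a2. In the ninth decile they were 14.6% (11.8 to 17.8) and 18.5% (15.0 to 22.5), and these intervals overlapped.

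That difference rested on regions that the EGS lists of line 4a1 hold. When only the 1703 peaks whose 4a1 peak came from the non-EGS list of line 4a1 alone were taken, their share at matched deciles was 3.59%. The difference was then 1.60 percentage points (0.619 to 2.58), with 4a2-only peaks the higher. It was -1.22 (-2.63 to 0.186) without EGS culture 1 of line 4a1, whose title code has the same number as that of the EGS libraries of line 4a2. It was -2.11 without EGS culture 1 of line 4a2, and -29.5 without the non-EGS list of line 4a1. No value here separates the line from the kind of library.

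**Figure D3:**
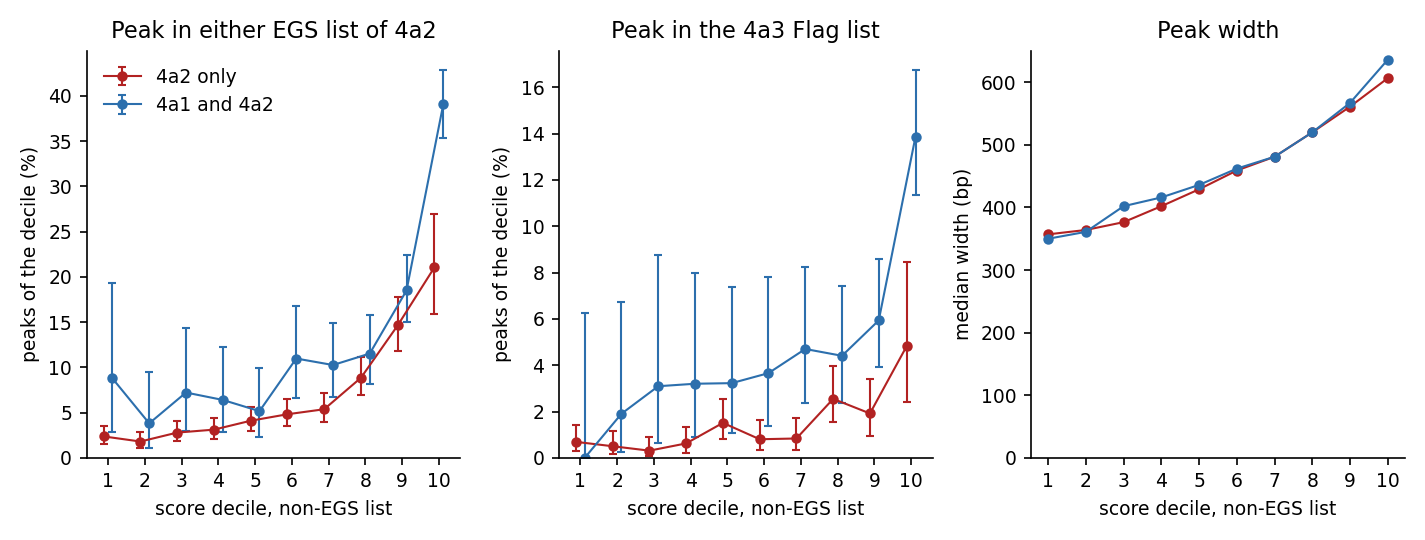
For each score decile of the non-EGS list of line 4a2 (x axis), the percentage of 4a2-only peaks (red) and of peaks shared by 4a1 and 4a2 (blue) with a peak in either EGS list of line 4a2 (left) or in the 4a3 Flag list (centre), with exact 95% intervals, and the median width in bp (right). Widths nearly coincide decile by decile, while in the highest decile the EGS shares are 21.1% and 39.1% and the Flag shares 4.82% and 13.9%.

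The Flag list of line 4a3 was not used to choose the regions. The rule did leave out every region with a Foxa3 peak of that line, so Flag shares are not independent of it. Regions of 4a1 and 4a2 also lack such peaks, while those of 4a2 and 4a3 and of all 3 lines hold them. Its lowest score was 50, while the lowest scores of the other 13 lists lay between 5.0 and 5.87, so its scale or threshold was not that of the others, and Flag shares here count only the peaks it lists. It overlapped 109 of the 8331 4a2-only regions (1.31%, 1.08 to 1.58), beside 3.47% of all iHep Foxa regions. Counted on the Flag list, 108 of its 883 peaks (12.2%, 10.1 to 14.6) fell in 4a2-only regions, at a median Flag percentile of 46.3. The share of regions with a Flag peak was 7.13% (6.12 to 8.24) for 4a1 and 4a2, 13.2% (9.76 to 17.2) for 4a2 and 4a3, and 44.0% (39.1 to 49.0) for all 3 lines. For 2886 isolated regions of line 4a3 alone, taken outside chains of its own non-EGS list, it was 1.14% (0.788 to 1.60). The intervals of the 4a2-only and the 4a3-only regions overlapped, although the Flag list comes from line 4a3.

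Flag overlap went up with the number of Foxa2 lists. It was 75 of 7894 (0.95%, 0.748 to 1.19) for regions in 1 list, 25 of 369 (6.78%, 4.43 to 9.84) in 2 lists and 9 of 68 (13.2%, 6.23 to 23.6) in all 3. The interval for 1 list lay below the others, which overlapped. Flag overlap also went with the kind of library. The number of lists was not separated from that kind. The non-EGS list only held 7707 of the 7894 regions in 1 list, while every region in 2 or 3 lists has an EGS peak. Regions of EGS lists only had 19 of 202 (9.41%, 5.76 to 14.3), regions of EGS and non-EGS lists 31 of 422 (7.35%, 5.05 to 10.3) and regions of the non-EGS list only 59 of 7707 (0.766%, 0.583 to 0.986). The Flag list itself carries EGS in its title. Without the non-EGS list of line 4a2, Flag overlap was 8.06% of the 645 regions left, against 20.7% of the regions of 4a1 and 4a2 then left. Without the non-EGS list of line 4a1 the shares were 1.53% and 18.8%.

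**Figure D4:**
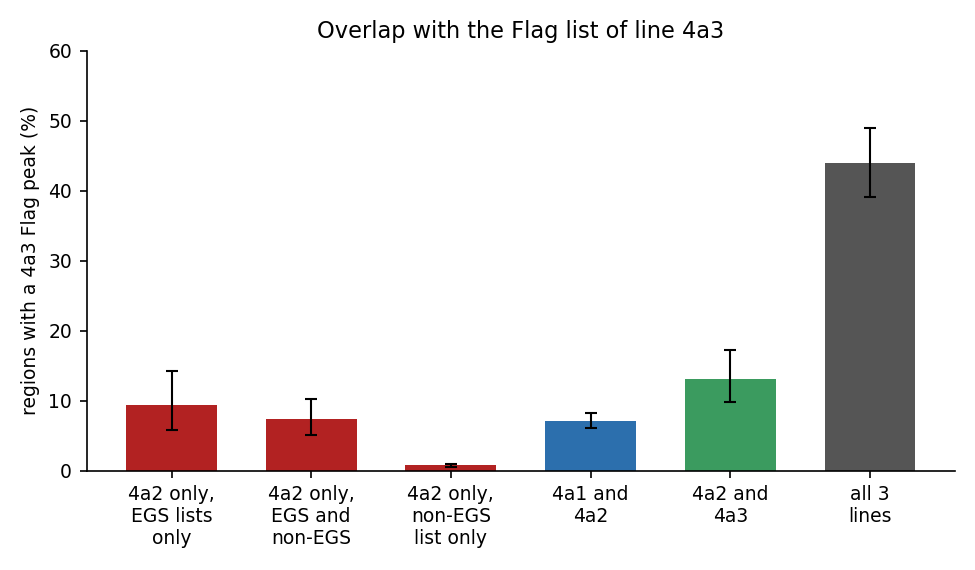
Percentage of isolated regions with a peak in the Flag list of line 4a3, with exact 95% intervals, for 4a2-only regions by the kind of library that holds them (red) and for regions of 4a1 and 4a2, of 4a2 and 4a3, and of all 3 lines. The 4a2-only regions with an EGS peak stand at 9.41% and 7.35% and those of the non-EGS list alone at 0.766%. The other bars (7.13%, 13.2% and 44.0%) are not split by library kind.

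Among peaks of the non-EGS list, 1.11% of 4a2-only peaks (90 of 8129) overlapped a 4a3 Flag peak, beside 4.15% of the whole list. The share for peaks of 4a1 and 4a2 was 6.94%, and 3.44% ± 0.44 (SE) at matched deciles, a difference of -2.33 percentage points (-3.23 to -1.43). In the highest decile the shares were 4.82% (2.43 to 8.47) for 4a2-only peaks and 13.9% (11.3 to 16.7) for peaks of 4a1 and 4a2. Against peaks whose 4a1 peak came from the non-EGS list of line 4a1 alone, the difference was -0.216 (-0.808 to 0.377), so the interval included 0. It was -1.33 without EGS culture 1 of line 4a1, -11.1 without the list of line 4a1 that is not EGS, and -4.12 without EGS culture 1 of line 4a3.

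Both sets were also split by EGS peaks of lines 4a1 and 4a2. The split is not alike in the 2 sets. By the rule a 4a2-only peak can have an EGS peak of line 4a2 alone, while a peak of 4a1 and 4a2 can have one of either line. Of the 2333 peaks of 4a1 and 4a2, 448 had an EGS peak of line 4a2. Where neither line had an EGS peak, 59 of 7707 4a2-only peaks (0.766%) and 30 of 1544 peaks of 4a1 and 4a2 (1.94%, 1.31 to 2.76) had a Flag peak. At matched deciles the second share was 1.09% ± 0.27 (SE). Where at least 1 EGS peak was present, the shares were 31 of 422 (7.35%) for 4a2-only peaks and 132 of 789 (16.7%, 14.2 to 19.5) for peaks of 4a1 and 4a2, or 12.7% ± 1.4 (SE) at matched deciles. The 2 sets stood closer where no EGS peak was present and farther apart, in percentage points, where one was. An EGS peak at the region went with a higher Flag share in both sets.

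The 109 regions with a 4a3 Flag peak were spread over the ranks. For the 90 of them with a non-EGS peak, percentiles in that list ran from 1.59 through a median of 64.8 to 96.6. The highest was chr11:72309461-72310054, at 96.6 in the non-EGS list and at 45.9 in the Flag list. The region chr10:69117539-69117657, in EGS culture 1 alone, stood at 96.1 there and at 70.3 in the Flag list. The regions chr4:133301744-133302442 and chr9:79913139-79913773 stood at 94.1 and 92.1 in the non-EGS list and both at 27.0 in the Flag list. The region chr14:70811137-70811229 stood at 92.0 in EGS culture 2, the only Foxa2 list that held it, and at 47.3 in the Flag list. Among the 68 regions in all 3 lists, the 9 with a Flag peak included chr8:14406410-14407002, at 85.8 in the Flag list. It lay 892 bp from a 4a1 peak, the smallest such gap of the 68.

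The Flag list of line 4a2, from the same line as the regions, held 21 peaks. None fell in a 4a2-only region. Per region this allows up to 0.0443% of the 8331 (exact interval), beside 0.077% of all iHep Foxa regions with such a peak. Counted on the Flag list, it allows up to 16.1% of its peaks. Of the 21, 8 lay in isolated regions of all 3 lines, 4 in regions of 4a2 and 4a3, and 1 in a region of 4a1 and 4a2. The count was 1 when EGS culture 1 of line 4a3 was left out of the rule. A list this short sets a wide limit on the share of its peaks.

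Hepatocyte lists overlapped few 4a2-only regions. A peak of any of the 3 hepatocyte lists was present in 37 of 8331 (0.444%, 0.313 to 0.612), beside 2.42% of all iHep Foxa regions. For isolated regions of 4a1 and 4a2 the share was 1.15% (0.756 to 1.66). Among peaks of the non-EGS list at matched deciles it was 0.381% for 4a2-only peaks and 0.373% for peaks of 4a1 and 4a2. The low share was thus not particular to 4a2-only peaks at like rank. By antibody, the hepatocyte Foxa1 list overlapped 2 regions (beside 0.616% of all regions), the Foxa2 list 25 (beside 0.752%) and the Foxa3 list 13 (beside 1.61%). On the hepatocyte side, 4a2-only regions held 25 of 244 Foxa2 peaks (10.2%, 6.74 to 14.8), 2 of 166 Foxa1 peaks (1.20%, 0.146 to 4.28) and 14 of 1091 Foxa3 peaks (1.28%, 0.703 to 2.14). The Foxa2 list thus had the highest share of its peaks in 4a2-only regions, beyond counting error, with 1 list per antibody and no replicate check. This was not particular to 4a2-only regions. Isolated regions of 4a1 and 4a2 held 9.84% of Foxa2, 2.41% of Foxa1 and 0.642% of Foxa3 hepatocyte peaks. Those of all 3 lines held 13.1%, 2.41% and 1.56% in the same order. Regions of 4a2 and 4a3 showed no such order. They held 1.23% (0.254 to 3.55) of Foxa2, 0.602% (0.0153 to 3.31) of Foxa1 and 1.28% (0.703 to 2.14) of Foxa3 peaks, with overlapping intervals.

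Per region, the hepatocyte Foxa2 list overlapped 4a2-only regions less often than regions of line 4a2 shared with 4a1. The share was 0.300% (0.194 to 0.443) of 4a2-only regions, against 1.02% (0.653 to 1.51) of the 2357 regions of 4a1 and 4a2, with 24 of the 244 peaks, and 7.86% (5.44 to 10.9) of the 407 regions of all 3 lines, with 32 peaks. At matched deciles of the non-EGS list the hepatocyte Foxa2 list overlapped 0.283% of 4a2-only peaks and 0.342% ± 0.13 (SE) of peaks of 4a1 and 4a2. That difference was within its counting error.

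As with the Flag list, hepatocyte overlap went with EGS libraries. It was 6 of 202 (2.97%, 1.10 to 6.35) for regions of EGS lists only, 6 of 422 (1.42%, 0.524 to 3.07) for regions of EGS and non-EGS lists and 25 of 7707 (0.324%, 0.210 to 0.478) for regions of the non-EGS list only. Without the non-EGS list of line 4a2 it was 2.02% of 645 regions. All hepatocyte lists carry EGS in their titles, and the part of that shared label in these shares was not tested.

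Of the 37 regions, 35 were in 1 hepatocyte list, 1 in 2 and 1 in 3. The region chr5:147072622-147072719, at a percentile of 42.9 in EGS culture 2, was in the hepatocyte Foxa2 and Foxa3 lists at 59.0 and 47.2, and at 95.5 in the 4a3 Flag list. The region chr10:7232719-7232865 was in all 3 hepatocyte lists, at 24.1 for Foxa1, 84.4 for Foxa2 and 86.2 for Foxa3, and at 99.4 in the 4a3 Flag list. It was a weak peak of EGS culture 1, at 1.57, and lay 1669 bp from a 4a1 peak. In all 3 hepatocyte lists and the Flag list it belonged to a run of at least 4 peaks with gaps up to 10 kb. Of the 8331 regions, 3 stood in such a run in any of the 14 lists. The rule largely fixes this count. It dropped chains of the non-EGS list and every region with a Foxa peak of line 4a1 or 4a3.

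The 4a2-only regions were mostly far from peaks of line 4a1. The gap from the edge of a region to the nearest of 4913 4a1 peaks had a median of 146 kb (quartiles 45.3 and 383 kb). A 4a1 peak lay within 1 kb of 101 regions (1.21%, 0.989 to 1.47), beside 1.49% of the 12927 iHep Foxa regions without a 4a1 peak of their own. It lay within 10 kb of 673 (8.08%) and within 100 kb of 3425 (41.1%). Isolated 4a3-only regions had a median gap to 4a1 peaks of 162 kb, with 1.28% (0.904 to 1.76) within 1 kb and 7.76% within 10 kb. The share within 1 kb was 0.538% when the non-EGS peaks of line 4a1 were left out and 2.33% when those of line 4a2 were.

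**Figure D5:**
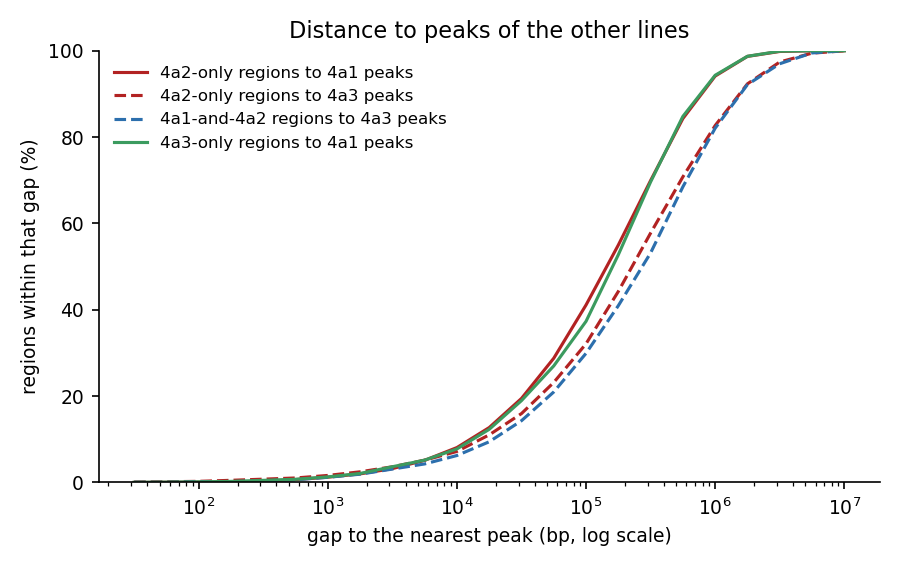
Cumulative percentage of isolated regions (y axis) by the gap in bp to the nearest peak of another line (x axis, log scale), for 4a2-only regions to 4a1 and 4a3 peaks, regions of 4a1 and 4a2 to 4a3 peaks, and 4a3-only regions to 4a1 peaks. The curves to 4a1 peaks nearly coincide, with 8.08% of 4a2-only and 7.76% of 4a3-only regions within 10 kb.

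Peaks of line 4a3 were farther away at the median than those of 4a1, while the shares within 1 kb had overlapping intervals. The median gap to the nearest of 5609 4a3 peaks was 226 kb, with 135 regions (1.62%, 1.36 to 1.92) within 1 kb, 7.18% within 10 kb and 32.1% within 100 kb. Regions of 4a1 and 4a2 had a median gap to 4a3 peaks of 276 kb and 1.19% (0.791 to 1.71) within 1 kb. The nearer peak was one of 4a1 for 5113 4a2-only regions (61.4%, 60.3 to 62.4) and one of 4a3 for 3215 (38.6%), with 3 equal. Regions of EGS lists only lay within 1 kb of a 4a3 peak in 16 of 202 cases (7.92%, 4.60 to 12.5), against 104 of 7707 (1.35%, 1.10 to 1.63) for regions of the non-EGS list only.

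Rank and overlap differed little with the distance to 4a1. The median percentile in the non-EGS list was 34.4 (interval 26.1 to 42.3) for the 97 peaks with a gap of up to 1 kb, 42.2 from 1 to 10 kb, 42.5 from 10 to 100 kb and 40.6 beyond 100 kb. EGS recovery was 5.15%, 5.40%, 5.38% and 5.06% in the same order. Flag overlap was 2.06% (0.251 to 7.25), 1.44%, 1.41% and 0.878% (0.634 to 1.19), with overlapping intervals. Median gaps to 4a1 were 147 kb for regions in 1 list, 130 kb for those in 2 and 130 kb for those in all 3.

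At the edge of the rule, the smallest gap inside it was 3 bp to a 4a3 peak and 53 bp to a 4a1 peak, and 10 regions had a gap under 50 bp, all to 4a3 peaks. The nearest to 4a3 was chr6:125427090-125427539, in the non-EGS list at a percentile of 58.6, which was chosen after its values were seen. The nearest to 4a1 stood 53 bp away. These were chr8:59904877-59905023, in EGS culture 1 at a percentile of 56.7, and chr17:29423372-29423464, in EGS culture 2 at 4.90. The region chr13:5844837-5845282, in the non-EGS list at 70.8, stood 56 bp away. A further 2 non-EGS regions stood 82 bp away, chr1:77172203-77172548 at 4.26 and chr13:9762301-9762750 at 77.5. Just outside, chr16:23988367-23989029 was left out for an overlap of 3 bp with a non-EGS peak of line 4a3, and chr2:30271265-30271747 for 8 bp with the same list. The region chr19:29138355-29138789 was left out for 15 bp with EGS culture 2 of line 4a1. The non-EGS list of line 4a3 also excluded chr17:3114369-3115213 by 21 bp and chr6:34815553-34816182 by 23 bp. Of the 3106 isolated regions of line 4a2 that another line shared, 17 had an overlap under 50 bp, and the median overlap was 379 bp.

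Within the non-EGS list, 4a2-only peaks stood alone about as often as the list as a whole. Of the 8129, 6155 (75.7%, 74.8 to 76.6) had no other peak of the list within 10 kb, against 74.5% (72.6 to 76.2) of peaks of 4a1 and 4a2, and 8377 of all 11172 peaks outside dropped chains (interval 74.2% to 75.8%). Of the other 4a2-only peaks, 1565 were in pairs and 409 in runs of 3. Median percentiles were 41.1, 43.3 and 40.2 in that order, close to each other. Of the 1184 pairs and runs of 3 with a 4a2-only peak, 548 also held a peak that another line shared. The rule dropped 54 longer chains with 236 peaks. Of these, 38 had exactly 4 peaks, while 203 runs of 3 lay just inside the rule and were kept.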

How the data were processed

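Peak lists of 14 ChIP-seq libraries were used. No file of the 10 input libraries was used. The submitters' processing notes name bedtools 2.16.2, MACS2 2.1.0, BWA 0.6.2 and the mouse build mm9. The sources used here do not state the calling threshold, the use of inputs or the scale of the score. Every deposited line holds coordinates, a peak name and the authors' score, which served only as a rank within a list. Lists were taken as called per library, since each file belongs to 1 sample.

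Peaks of the 9 iHep Foxa lists were merged with pandas 2.3.3, numpy 2.4.6 and scipy 1.17.1 under Python 3.11.15. Chains were runs of at least 4 peaks with gaps up to 10 kb in the non-EGS list of line 4a2. Widths and percentiles are those of the peak in the list named. Shares at matched deciles weight the decile shares of the compared set by the deciles of the 4a2-only peaks, with a binomial SE and, for differences, a normal 95% interval. The interval of a median is binomial, from order statistics. Merging, chains and overlaps were tested on simulated data. The regions, comparisons and lists were chosen with earlier results of these data known, so no test was run and intervals describe counting error.

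Regions were named by rule: the 10 in all 3 lists with the highest mean percentile, the 5 highest in 2 lists and in 1 list, the 5 nearest to a 4a1 peak, the 5 excluded by the smallest overlap, those in the 4a2 Flag list, the 5 highest with a 4a3 Flag peak, and those in at least 2 hepatocyte lists. The Flag region of the 68 nearest to a 4a1 peak was chosen after its values were seen. Replicates are culture numbers in the titles, which the labels do not describe as separate inductions. The annotation at hand is of another build, and 190 peaks lay beyond its last gene on their chromosome. Motifs and gene starts were therefore not analysed here. Alternatives were an overlap of 50% of the narrower peak, merging within 1 kb, the top-scoring 50% of each list, chain gaps up to 20 kb, no chain dropped, and each list left out in turn.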

Additional observations from a re-analysis of the deposited data

How the results depend on the processing

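No paired analysis was possible because no result comes from a test. With the top-scoring 50% of each list, 4389 regions were left, 0.684% lay within 1 kb of a 4a1 peak and the median width was 516 bp. With peaks within 1 kb merged, 0% lay within 1 kb, by construction. An overlap of 50% of the narrower peak, chain gaps up to 20 kb and keeping every chain moved none of the main values beyond counting error or 1.5 times, nor did dropping the chains of any of the 14 lists, which was added after seeing the data. A further alternative added then, peaks whose 4a1 peak is in the non-EGS list alone, turned the EGS difference at matched deciles to 1.60 percentage points and gave a Flag difference of -0.216. The cause was not tested.

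Leaving out each list in turn gave 645 to 10036 regions, 0.538% to 2.33% within 1 kb of a 4a1 peak, 1.19% to 8.06% with a 4a3 Flag peak, 0 to 1 with a 4a2 Flag peak and 0.414% to 2.02% with a hepatocyte peak. The median percentile ranged from 41.2 to 46.1, the median width from 434 to 447 bp, and EGS recovery from 2.78% to 5.95%. The differences at matched deciles ranged from -29.5 to -1.22 percentage points for EGS lists and from -11.1 to -1.33 for the Flag list. The lowest count and the highest shares for outside lists came without the non-EGS list of line 4a2, where percentile, width and EGS recovery have no value. Depth is unknown, so a region without a peak in another line is one where no peak was listed.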

Other observations

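A larger share of the 4a2-only regions lay on chromosome X than of the isolated regions of line 4a2 that another line shared. Of the 8331 regions, 192 lay on X (2.30%, exact 95% interval 1.99 to 2.65), against 41 of 3106 shared regions (1.32%, 0.949 to 1.79). This was noticed after seeing the data and not tested. In the non-EGS list at matched score deciles the shares were 2.33% ± 0.17 (SE) for 4a2-only peaks and 2.27% ± 0.48 (SE) for peaks of 4a1 and 4a2, where the unweighted share was 1.63%. Peaks of all 3 lines had 1 of 395 on X (0.253%, 0.00641 to 1.40). At matched deciles that 1 peak gave 0.0135% ± 0.0135 (SE), which says little. Peaks of 4a2 and 4a3 had 0 of 315, which allows up to 1.16%. Both unweighted shares lay below the 4a2-only share. The highest share of 4a2-only regions was on chromosome 2, with 707 (8.49%, 7.90 to 9.11), against 243 of the shared regions (7.82%, 6.90 to 8.82). The 68 regions in all 3 lists lay on every autosome and on X, with at most 6 on one chromosome.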
